A study of Mus musculus with 8 samples.

Results

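The genes described here encode the receptors and ligands of the vascular endothelial growth factor (VEGF) family. They are the receptor kinases Kdr, Flt1 and Flt4, the co-receptors Nrp1 and Nrp2, and the ligands Vegfa, Vegfb, Vegfc and Pgf. They were chosen by symbol in the gene list of run B and matched to run A by gene identifier, and all 9 were found among the 30406 genes present in both lists. Their levels were followed across endothelial classes, tissues and diets in 8 single-cell RNA libraries. Each library came from YFP-positive cells of male ROSA26-eYFP+/+ Cdh5-CreERT2+ mice, which carry a tamoxifen-inducible Cre recombinase driven by the endothelial Cdh5 promoter and a YFP reporter. Every group, controls included, received tamoxifen in the diet for 2 weeks from 6 weeks of age. From 8 weeks of age the mice ate normal chow with 5.8% fat or a high fat diet with 60% fat for 12 to 13 weeks. The 4 groups were chow mesentery, high fat mesentery, chow epididymal adipose tissue and high fat epididymal adipose tissue, with 2 libraries in each. A library pooled the tissue of 6 mice, and the whole experiment was carried out in the independent runs A and B. All tissue was digested in the presence of actinomycin D, an inhibitor of transcription, and live YFP-positive cells were sorted.

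After filters, 23100 cells in 28 clusters remained. Run A libraries then held 983 to 1889 cells and 2748472 to 5920231 counts of unique molecular identifiers (UMIs). Run B libraries held 2907 to 5311 cells and 17368194 to 31445097 UMIs. The limit on mitochondrial counts removed 22.8 to 30.8% of barcodes in run A and 5.36 to 8.85% in run B. Clusters were built without the VEGF genes and named from markers as arterial-like (2743 cells, clusters 3 and 8), capillary-like (3566 cells, clusters 2 and 5), venous-like (3293 cells, clusters 6, 11, 15, 24 and 28) and lymphatic-like (3254 cells, clusters 7, 14, 16, 17 and 19). These rebuilt names may differ from those of the study. With the unnamed clusters 1, 18 and 23, which carry endothelial markers, 15857 cells counted as endothelial. The unnamed clusters 4, 10 and 12 (1566, 937 and 727 cells) carry them too. They were left out because they also carry adipocyte or mural markers. In run B, cluster 4 held 434 and 1062 cells of chow mesentery and chow adipose tissue. It held 20 and 10 cells of high fat mesentery and high fat adipose tissue there. The effect of leaving these clusters out on the diet comparisons was not tested. The label of endothelial cells did not hold for the whole sort, which also held clusters with markers of adipocytes (961 cells), fibroblasts (702), macrophages (699), T cells (410) and B cells (363). Over all libraries, 75 barcode sequences occurred in more than 1 library, 0 to 9 for any pair.

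VEGF ligands are secreted proteins that bind receptor kinases on endothelial cells. Kdr (VEGFR2) carries most of the growth and permeability signal of Vegfa in blood vessels. Flt1 (VEGFR1) binds Vegfa, Vegfb and Pgf and also exists as a soluble decoy, which these 3′ counts cannot tell from the membrane form. Flt4 (VEGFR3) is the main receptor for Vegfc and drives lymphatic growth, and the neuropilins are co-receptors for VEGFs and for class 3 semaphorins.

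The windows before the transcription starts of Kdr and Flt1 are printed because both receptors were high in blood vessel classes. Flt1, unlike Kdr, was far lower in lymphatic-like cells than in those classes. The sequences are from RefSeq on GRCm38.p6, 5′ to 3′ on the strand of the gene. Capitals mark matches, on either strand, to the Sp1 site GGGCGG and to the TATA box, whose letters are given with the counts. The Kdr window is chr5:75978459-75978705 and the Flt1 window is chr5:147726012-147726261, both on the minus strand and just upstream of the gene.
Kdr: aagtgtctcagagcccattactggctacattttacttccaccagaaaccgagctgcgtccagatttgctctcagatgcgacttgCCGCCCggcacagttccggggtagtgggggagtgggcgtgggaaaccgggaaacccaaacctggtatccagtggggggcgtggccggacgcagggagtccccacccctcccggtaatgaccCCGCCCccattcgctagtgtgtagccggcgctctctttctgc
Flt1: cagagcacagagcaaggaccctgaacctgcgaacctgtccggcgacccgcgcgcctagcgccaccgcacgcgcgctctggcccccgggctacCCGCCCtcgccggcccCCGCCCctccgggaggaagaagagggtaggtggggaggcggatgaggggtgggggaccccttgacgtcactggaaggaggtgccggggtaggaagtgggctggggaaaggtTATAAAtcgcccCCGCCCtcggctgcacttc
The Kdr window held 2 matches to GGGCGG and 0 to TATAAA, and the Flt1 window held 3 and 1, counted on both strands. Of 32536 RefSeq promoter windows, 33.0% held GGGCGG and 12.3% held TATAAA. Both windows held 0 matches to CGGAAG, an ETS site found in 13.7% of windows, and 0 to ACGTG, the core of a hypoxia response element found in 16.7%. No searched motif can overlap another by its full length, and a match only describes the letters. All 9 genes had a window in the table, and on GRCm38 the GENCODE models place Kdr at chr5:75932827-75978458 and Flt1 at chr5:147561604-147726011.

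Levels are CPM, counts per class and library scaled to a common total with edgeR's TMM factors. They were compared between samples for 1 gene at a time, never between genes. There were 31 such sums, because run A of chow mesentery held 17 capillary-like cells, under the minimum of 20. Differences between classes are log2 fold changes with standard errors from edgeR's quasi-likelihood test with library as a term, and a difference was called where the p, adjusted by Benjamini and Hochberg's method over 9998 genes, was under 0.05. Of 54 tests between classes over the VEGF genes, 41 were called. In arterial-like against capillary-like cells 2 members were higher and 3 lower, where 19.3% of all genes were called (11.3% higher and 8.03% lower). Against venous-like cells 4 were higher and 2 lower in arterial-like cells, beside 27.1% of all genes (12.3% and 14.8%). Against lymphatic-like cells arterial-like cells had 3 higher and 5 lower, beside 41.2% (20.2% and 21%). Capillary-like cells had 4 higher and 3 lower than venous-like cells, beside 27.7% (11.2% and 16.5%), and 3 higher and 4 lower than lymphatic-like cells, beside 38.6% (17% and 21.6%). Venous-like cells had 3 higher and 5 lower than lymphatic-like cells, beside 35.6% (18.8% and 16.8%).

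**Figure D1:**
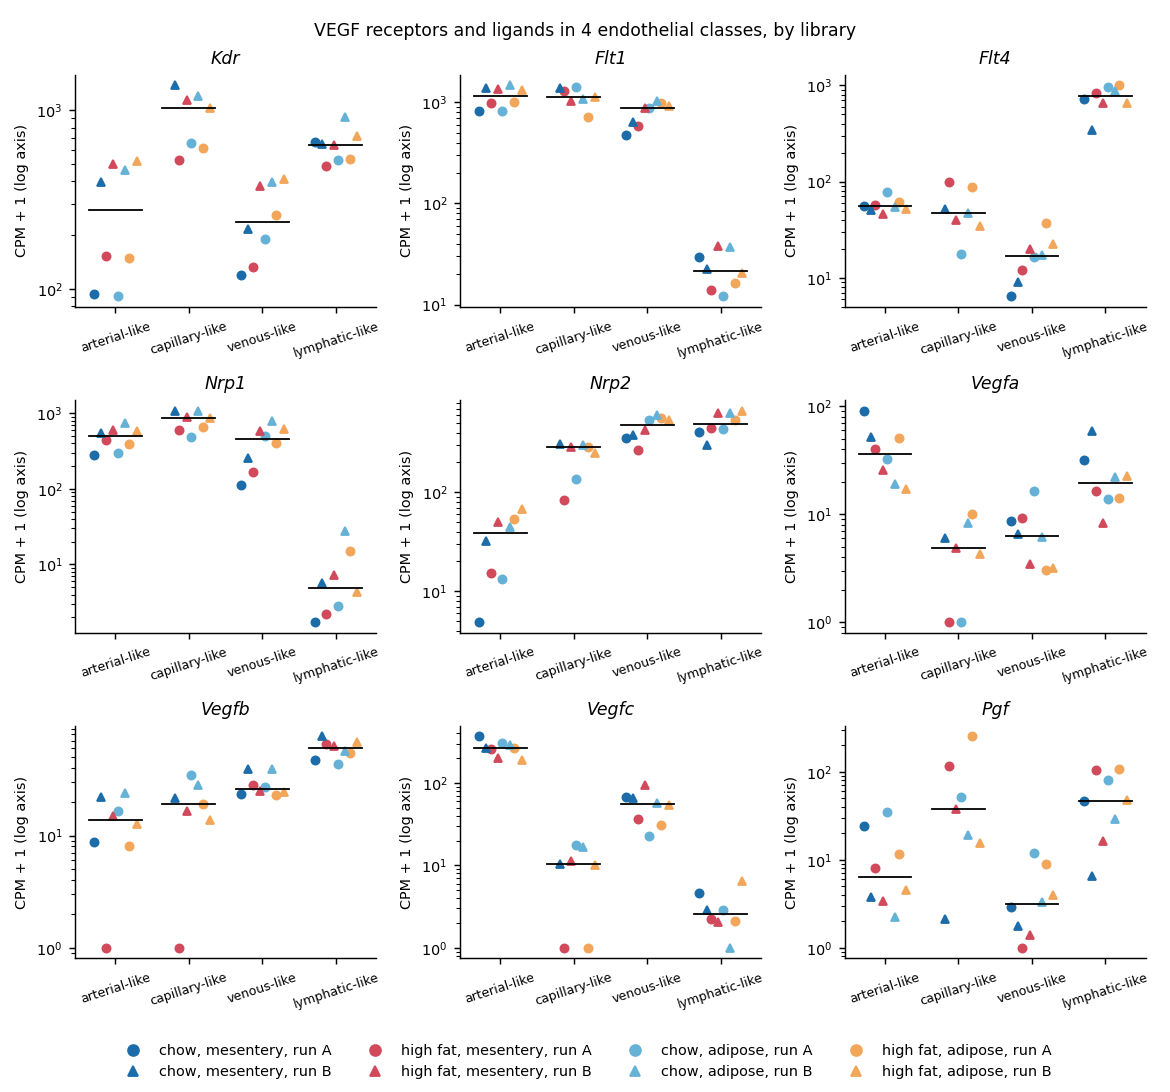
Level of each gene (CPM + 1, log axis) in the 4 endothelial classes; each point is a library, coloured by group and shaped by run, and the bar is the median over libraries. Kdr has its highest median in capillary-like cells (1021 CPM), Flt4 in lymphatic-like cells (769 CPM) and Vegfc in arterial-like cells (263 CPM).

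Kdr, the main signalling receptor for Vegfa, was highest in capillary-like cells and second highest in lymphatic-like cells. Its lowest, median and highest levels were 527, 1021 and 1380 CPM in capillary-like cells over 7 libraries. They were 489, 641 and 912 CPM in lymphatic-like cells, 90.0, 275 and 518 CPM in arterial-like cells and 119, 237 and 410 CPM in venous-like cells, over 8 libraries each. The capillary-like libraries lay above all arterial-like and venous-like ones, while arterial-like and venous-like libraries overlapped widely. Kdr was lower in arterial-like than in capillary-like cells, with a log2 difference of -1.67 ± 0.22 (edgeR, adjusted p = 9.87e-07), and higher in capillary-like than in venous-like cells, by 1.80 ± 0.22 (edgeR, adjusted p = 1.80e-07). Against lymphatic-like cells the log2 difference was -1.29 ± 0.21 in arterial-like cells (edgeR, adjusted p = 7.59e-06) and -1.42 ± 0.20 in venous-like cells (edgeR, adjusted p = 1.70e-06). The steps from capillary-like to lymphatic-like cells (0.38 ± 0.21, adjusted p = 0.169 by edgeR) and from arterial-like to venous-like cells (0.13 ± 0.20, adjusted p = 0.732 by edgeR) were not called.

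Within the arterial-like class, Kdr differed between clusters and between runs. Cluster 8 had 111 CPM of Kdr with all libraries pooled, and its libraries ranged from 25.8 to 191 CPM. Cluster 3 had 599 CPM, with libraries from 139 to 657 CPM. In the order chow mesentery, high fat mesentery, chow adipose and high fat adipose, the arterial-like levels were 93.3, 152, 90.0 and 149 CPM in run A and 398, 501, 462 and 518 CPM in run B. Every run B library was thus above every run A library, and capillary-like Kdr was split by run too, at 527 to 656 CPM in run A and 1021 to 1380 CPM in run B. The summed level of 9 capillary markers in arterial-like cells moved in the same way, from 836 to 1775 CPM in run A and from 4847 to 10200 CPM in run B, and its part in the Kdr values was not tested. In venous-like and lymphatic-like cells the runs overlapped for Kdr and for the other 8 genes.

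Flt1 was a gene of the blood vessel classes. The lowest, median and highest Flt1 levels were 813, 1155 and 1479 CPM in arterial-like cells, 710, 1130 and 1413 CPM in capillary-like cells and 476, 884 and 1029 CPM in venous-like cells. In lymphatic-like cells they were 11.1, 20.5 and 37.3 CPM, below every library of the other 3 classes. Against lymphatic-like cells the log2 difference of Flt1 was 5.67 ± 0.24 in arterial-like, 5.65 ± 0.24 in capillary-like and 5.15 ± 0.23 in venous-like cells (edgeR, highest adjusted p = 4.40e-16). Flt1 was also called higher in arterial-like than in venous-like cells, by 0.53 ± 0.19 (edgeR, adjusted p = 0.0347), but DESeq2 gave an adjusted p of 0.0637. The call was also lost without either library of chow mesentery (edgeR, adjusted p = 0.0802 and 0.103) or high fat mesentery (0.0606 and 0.0671), or run B of chow or high fat adipose tissue (0.0631 and 0.0703), and the Flt1 difference was 0.36 with doublets kept, 0.31 at clustering resolution 2.0 and 0.10 in clusters 2, 3, 5, 6, 8 and 17 alone (edgeR, lowest adjusted p = 0.157). Capillary-like and venous-like cells differed by 0.50 ± 0.20 (edgeR, adjusted p = 0.0598). After thinning each cell to 1000 UMIs, 1.72% of 2794 lymphatic-like cells held a Flt1 UMI (95% interval 1.27 to 2.27%). The shares were 1.04% of 385 T cells (0.284 to 2.64%) and 0.877% of 342 B cells (0.181 to 2.54%). These intervals overlapped, so the share of the whole lymphatic-like class was not clearly above that of cells which should lack the receptor. The lymphatic-like clusters were unequal. Before scaling, Flt1 was 37.4 to 171.9 CPM over the libraries of cluster 17. In libraries with at least 20 cells it was 0 to 28.6 CPM in the other lymphatic-like clusters. It was 0 to 33.3 CPM in T cells and 0 to 12.1 CPM in B cells there. The source of the Flt1 counts in cluster 17 was not tested.

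Flt4 was far higher in lymphatic-like cells than in the blood vessel classes. Over libraries, the lowest, median and highest were 340, 769 and 1004 CPM in lymphatic-like cells and 45.5, 54.1 and 77.6 CPM in arterial-like cells. They were 16.8, 45.9 and 98.8 CPM in capillary-like and 5.40, 15.7 and 36.2 CPM in venous-like cells. All lymphatic-like libraries lay above all others, and no venous-like library reached the arterial-like range. Against lymphatic-like cells the log2 difference of Flt4 was -3.70 ± 0.21 in arterial-like, -3.91 ± 0.24 in capillary-like and -5.54 ± 0.24 in venous-like cells (edgeR, highest adjusted p = 2.80e-13). Flt4 was higher than in venous-like cells by 1.84 ± 0.24 in arterial-like cells (edgeR, adjusted p = 6.79e-07) and by 1.63 ± 0.25 in capillary-like cells (edgeR, adjusted p = 9.99e-06). Among lymphatic-like clusters, Flt4 was 1126, 1003 and 889 CPM in clusters 7, 19 and 14, 361 CPM in cluster 17 and 199 CPM in cluster 16, with libraries pooled. It was among the 10 leading genes of cluster 14, although it had no part in the clustering or the naming.

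**Figure D2:**
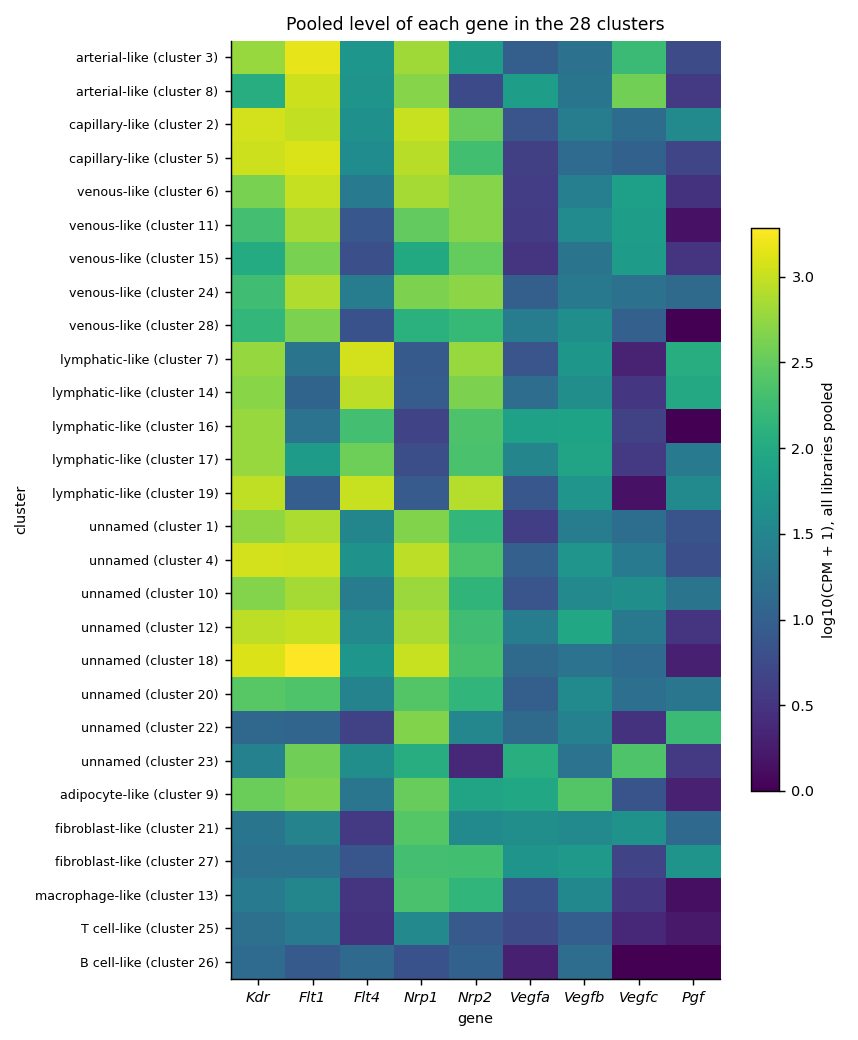
Level of each gene with libraries pooled (log10 of CPM + 1, colour scale) in each of the 28 clusters, which are grouped by class. Flt1 and Nrp1 are dark in the lymphatic-like rows where Flt4 is bright, and the arterial-like clusters 3 and 8 differ in Kdr (599 and 111 CPM).

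The co-receptor Nrp1 followed the same division as Flt1. Lowest, median and highest Nrp1 levels were 488, 878 and 1081 CPM in capillary-like cells and 284, 498 and 745 CPM in arterial-like cells. They were 110, 454 and 796 CPM in venous-like cells and 0.727, 3.94 and 27.0 CPM in lymphatic-like cells. The lymphatic-like level was below that of every other library, while the ranges of the blood vessel classes overlapped. Nrp1 was higher than in lymphatic-like cells by 6.94 ± 0.35 in capillary-like, 6.36 ± 0.34 in arterial-like and 6.02 ± 0.34 in venous-like cells on the log2 scale (edgeR, highest adjusted p = 3.61e-14), and higher in capillary-like than in venous-like cells by 0.92 ± 0.26 (edgeR, adjusted p = 0.00813). After thinning, 0.430% of lymphatic-like cells held a Nrp1 UMI, below the 2.08% of T cells. Mean Nrp1 levels over libraries were 7.39 CPM in lymphatic-like cells, 27.4 CPM in T cells and 3.29 CPM in B cells. T cells and B cells lie on either side of the lymphatic-like level, so they do not decide whether it is above background.

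Nrp2, which pairs with Flt4 on lymphatic and venous endothelium, was lowest in arterial-like cells. Its lowest, median and highest levels were 3.89, 37.3 and 67.4 CPM there and 82.3, 282 and 306 CPM in capillary-like cells. They were 266, 481 and 604 CPM in venous-like and 302, 491 and 663 CPM in lymphatic-like cells. No arterial-like library reached those of the other classes, and the venous-like and lymphatic-like ranges nearly coincided. The log2 difference of Nrp2 in arterial-like cells was -2.68 ± 0.22 against capillary-like, -3.63 ± 0.21 against venous-like and -3.79 ± 0.22 against lymphatic-like cells (edgeR, highest adjusted p = 3.90e-10). Capillary-like cells were lower than venous-like cells by a log2 difference of -0.95 ± 0.20 (edgeR, adjusted p = 5.52e-04) and lower than lymphatic-like cells by -1.11 ± 0.20 (edgeR, adjusted p = 5.59e-05). When each class was reduced to clusters 2, 3, 5, 6, 8 and 17, the last difference turned to 0.23 (edgeR, adjusted p = 0.453). Venous-like and lymphatic-like cells differed by -0.16 ± 0.18 (edgeR, adjusted p = 0.537).

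Shares of cells gave the same picture of the receptors at matched depth. Each cell was thinned to 1000 UMIs, which kept 2521 arterial-like, 3485 capillary-like, 3057 venous-like and 2794 lymphatic-like cells and left out 222, 81, 236 and 460. The kept cells had median depths of 3944, 4547, 4408 and 2929 UMIs, against 3306 in T cells and 2321 in B cells. A Kdr UMI was found in 62.2% of capillary-like, 45.6% of lymphatic-like, 26.4% of arterial-like and 19.6% of venous-like cells (92.2, 70.1, 50.9 and 48.2% before thinning), against 0.260% of T cells and 0.877% of B cells. For Flt4 the shares were 48.2% in lymphatic-like, 5.36% in arterial-like, 3.70% in capillary-like and 1.24% in venous-like cells (71.8, 18.4, 18.6 and 5.65% before thinning), against 0.260% of T cells and 0.292% of B cells. For Nrp2 they were 32.5% in venous-like, 31.9% in lymphatic-like, 19.4% in capillary-like and 3.93% in arterial-like cells (69.4, 54.2, 58.0 and 13.2% before thinning), against 0.519% of T cells and 0.877% of B cells. In lymphatic-like cells, 652 of 2794 cells (23.3%) held UMIs of both Kdr and Flt4, beside 22.0% given by the product of the single shares, and 19.5% held both Flt4 and Nrp2, beside 15.4%. In capillary-like cells, 38.1% of 3485 held both Kdr and Flt1, beside 36.8%.

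Vegfa, the main ligand of Kdr, was higher in arterial-like and lymphatic-like cells than in capillary-like and venous-like cells. The lowest, median and highest Vegfa levels were 15.9, 35.0 and 89.4 CPM in arterial-like and 7.25, 18.3 and 57.4 CPM in lymphatic-like cells. They were 0, 3.86 and 9.10 CPM in capillary-like and 2.01, 5.29 and 15.4 CPM in venous-like cells. All arterial-like libraries lay above all venous-like and capillary-like ones, and the lymphatic-like range overlapped the other 3. Vegfa was higher in arterial-like cells by 2.52 ± 0.35 than in capillary-like (edgeR, adjusted p = 3.23e-06) and by 2.87 ± 0.34 than in venous-like cells (edgeR, adjusted p = 1.66e-07). Against lymphatic-like cells the log2 difference was -1.88 ± 0.37 in capillary-like (edgeR, adjusted p = 1.33e-04) and -2.24 ± 0.34 in venous-like cells (edgeR, adjusted p = 5.67e-06), and arterial-like cells differed from them by 0.63 ± 0.28 (edgeR, adjusted p = 0.0769). The lymphatic-like clusters were unequal in Vegfa, with 74.5 CPM in cluster 16 and 30.0 CPM in cluster 17 with libraries pooled, and 6.41, 13.9 and 6.88 CPM in clusters 7, 14 and 19. The capillary-like clusters 2 and 5 held 6.36 and 3.23 CPM, and venous-like cluster 28 held 23.4 CPM against 2.16 to 8.79 CPM in the other venous-like clusters. Per cell it was sparse, with a UMI in 2.97% of lymphatic-like and 2.46% of arterial-like cells after thinning (8.39 and 8.42% before), against 0.260% of T cells and 0 of 342 B cells, which allows a share of up to 0.877%.

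Vegfc, the ligand of Flt4, was mainly arterial. Lowest, median and highest Vegfc levels were 191, 263 and 365 CPM in arterial-like and 22.0, 54.6 and 92.3 CPM in venous-like cells. They were 0, 9.50 and 16.8 CPM in capillary-like and 0, 1.54 and 5.43 CPM in lymphatic-like cells. The 4 ranges did not overlap, apart from the capillary-like and lymphatic-like ones. Vegfc was higher in arterial-like cells by 2.27 ± 0.20 than in venous-like, by 4.66 ± 0.27 than in capillary-like and by 7.03 ± 0.30 than in lymphatic-like cells on the log2 scale (edgeR, highest adjusted p = 7.24e-10). Capillary-like cells were lower than venous-like cells by a log2 difference of -2.39 ± 0.26 (edgeR, adjusted p = 4.86e-08) and higher than lymphatic-like cells by 2.38 ± 0.41 (edgeR, adjusted p = 3.03e-05), and venous-like cells were higher than lymphatic-like cells by 4.77 ± 0.33 (edgeR, adjusted p = 2.22e-12). After thinning, a Vegfc UMI was found in 20.4% of arterial-like and 6.71% of venous-like cells, and in 0.179% of lymphatic-like cells, below the 0.260% of T cells. Both arterial-like clusters carried it, at 284 to 443 CPM over the libraries of cluster 8 and 130 to 295 CPM over those of cluster 3.

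Vegfb, a ligand of Flt1, was higher in lymphatic-like cells than in the blood vessel classes, and among those it was higher in venous-like than in arterial-like or capillary-like cells. Over libraries, the lowest, median and highest Vegfb levels were 42.4, 59.2 and 75.4 CPM in lymphatic-like cells and 22.1, 25.2 and 38.4 CPM in venous-like cells. They were 0, 18.2 and 33.6 CPM in capillary-like and 0, 12.8 and 23.0 CPM in arterial-like cells. Every lymphatic-like library was above every other one. Against lymphatic-like cells the log2 difference of Vegfb was -2.06 ± 0.18 in arterial-like, -1.86 ± 0.19 in capillary-like and -1.11 ± 0.16 in venous-like cells (edgeR, highest adjusted p = 1.82e-06). Against venous-like cells it was -0.95 ± 0.19 in arterial-like (edgeR, adjusted p = 2.78e-04) and -0.75 ± 0.19 in capillary-like cells (edgeR, adjusted p = 0.00307), and the latter was not called with doublets kept (-0.52, adjusted p = 0.0608 by edgeR) or in the reduced clusters (-0.57, adjusted p = 0.0570 by edgeR).

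Pgf (placental growth factor), which binds Flt1 alone among the receptor kinases, was uneven between libraries. Its lowest, median and highest levels were 5.54, 45.9 and 107 CPM in lymphatic-like and 1.12, 36.8 and 250 CPM in capillary-like cells. They were 1.23, 5.33 and 34.1 CPM in arterial-like and 0, 2.14 and 10.98 CPM in venous-like cells. These ranges overlapped, and in capillary-like and arterial-like cells each run A library was above each run B library. The log2 difference of Pgf was -2.72 ± 0.45 in arterial-like against capillary-like (edgeR, adjusted p = 3.90e-05) and -2.70 ± 0.43 against lymphatic-like cells (edgeR, adjusted p = 8.16e-06), and it was 3.88 ± 0.48 in capillary-like against venous-like (edgeR, adjusted p = 3.72e-07) and -3.85 ± 0.45 in venous-like against lymphatic-like cells (edgeR, adjusted p = 6.23e-08). The arterial-like against capillary-like call was lost with doublets kept (-1.18, adjusted p = 0.198 by edgeR). In that clustering an unnamed endothelial cluster of 182 cells, led by Prnd, Apln and Pgf, lay outside the capillary-like class. In run B it held 6 cells of chow mesentery, 44 of high fat mesentery, 69 of chow adipose and 32 of high fat adipose tissue. Its part in the capillary-like Pgf values was not tested. After thinning, 5.05% of lymphatic-like and 1.15% of capillary-like cells held a Pgf UMI (9.07 and 3.31% before), against 0.260% of T cells, and in venous-like cells the share of 0.196% was not above that of T cells.

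The sorted cells outside the endothelial classes held VEGF genes as well. In adipocyte-like cells of 3 libraries, Vegfb ranged from 51.1 to 312 CPM and Vegfa from 25.5 to 104 CPM (cluster 9). Kdr was 76.6 to 441 CPM and Flt1 51.1 to 499.7 CPM there. The endothelial marker level of that cluster was 0.529, against 0.0781, 0.108 and 0.124 in the T cell, B cell and macrophage-like clusters, and its part in the Kdr and Flt1 values was not tested. In fibroblast-like cells of 8 libraries, Nrp1 was 158 to 418 CPM, Vegfa 17.5 to 70.8 CPM and Pgf 6.95 to 61.4 CPM. Macrophage-like cells of 4 libraries held Nrp1 at 216 to 330 CPM and Nrp2 at 122 to 211 CPM. These are levels only, since no test was made on them, and YFP-positive sorting selects which of these cells were seen.

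Diet and tissue were compared within each class over all 8 libraries, with 1 mean per group in edgeR's quasi-likelihood test, and again with the run as a block, because the runs pair the libraries. Each group holds 2 pools of mice, so p-values without the block rest on the spread between runs. With the block they rest on the spread left after a shared difference between runs is taken out. Without the block, 1 of 220 tests over the VEGF genes was called and 13 had an unadjusted p under 0.05, and DESeq2 called 0. Over all genes, the same edgeR fits gave an unadjusted p under 0.05 to between 12 of 9158 and 1052 of 9376 genes. The lowest was the arterial-like difference of diet differences, the highest the lymphatic-like tissue comparison on chow. They called from 0 genes to 152 of 9376 (1.62%). With the block, 7 were called, each given with the share of all genes in its own comparison. Vegfc was not tested in lymphatic-like cells, where it did not pass the filter on low counts. Different clusters hold most of a class in different libraries: of arterial-like cells, cluster 8 held 51.4 to 54.1% in both chow mesentery libraries and run A of high fat mesentery, and cluster 3 held 54.6 to 77.8% in the other 5. Of capillary-like cells, cluster 2 held 70.2 to 81.9% in both chow mesentery libraries, run B of chow adipose and run A of high fat adipose, and cluster 5 held 52.4 to 75.2% in the others.

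**Figure D3:**
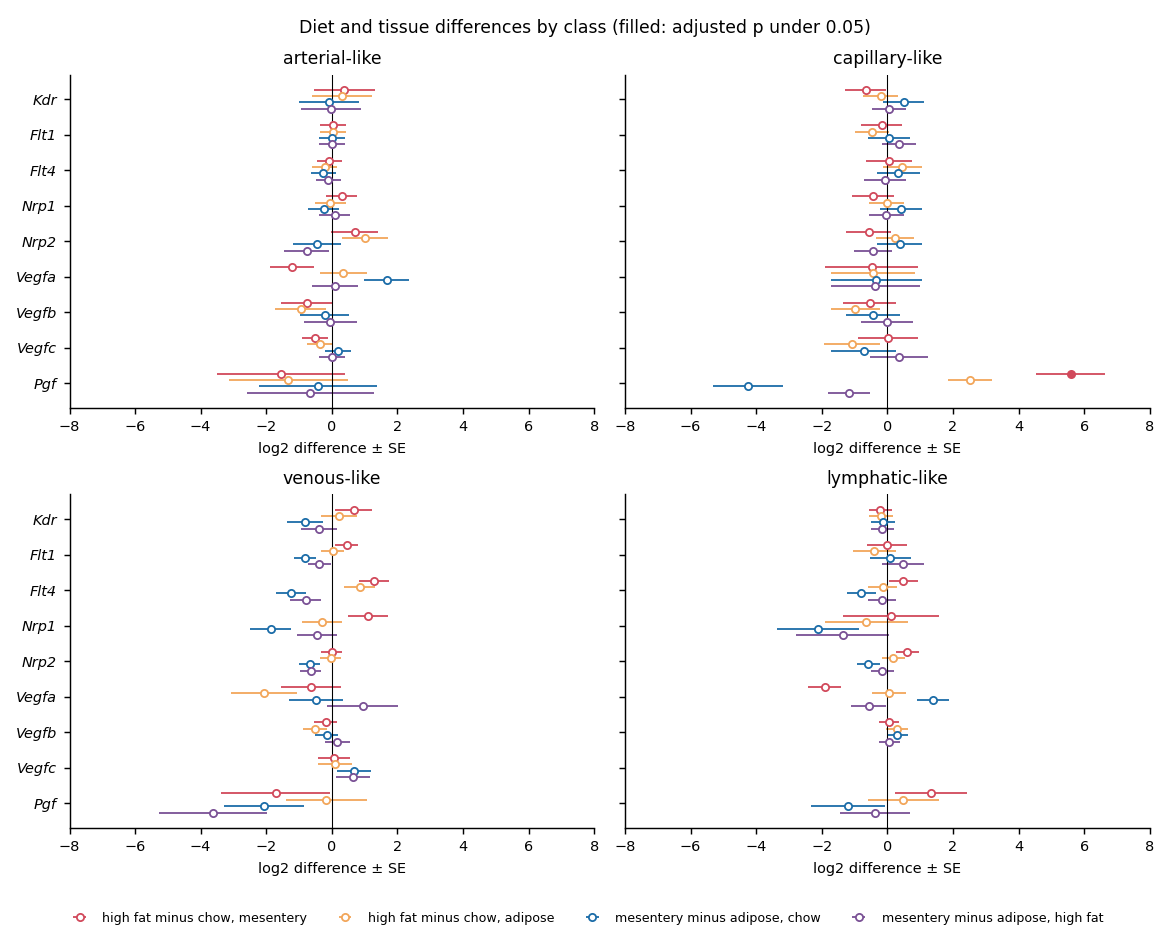
Log2 difference between diets within a tissue and between tissues within a diet (x axis, with standard error bars, edgeR without the block) for each gene in the 4 classes; filled points have an adjusted p under 0.05. The filled point is Pgf between the diets in mesentery in capillary-like cells (5.59 ± 1.05).

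In capillary-like cells Pgf had the smallest p of the VEGF genes in all 5 comparisons. Its levels were 1.12 CPM in chow mesentery (run B alone), 115 and 36.8 CPM in high fat mesentery, 50.5 and 18.2 CPM in chow adipose and 250 and 14.4 CPM in high fat adipose tissue (runs A and B). Run B of chow mesentery was the lowest, and run A was above run B wherever both existed. Between the diets in mesentery the log2 difference was 5.59 ± 1.05 (edgeR, adjusted p = 1.14e-04, beside 0.218% of all genes called) and 4.72 ± 0.81 with the block (edgeR, adjusted p = 4.00e-06, beside 0.834%). Within run B it was 4.16 on the log2(CPM + 1) scale, and run A had no chow value. The chow library rests on 2 Pgf counts in 1 of 456 cells and the high fat library of run B on 162 counts in 30 of 723 cells, which is a ratio of 31.8 (95% interval 8.65 to 265, counting error only).

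The Pgf difference in mesentery thus rests on a single chow library, and it did not hold in the other run. The left-out chow library of run A had 13 Pgf counts in 2 of its 17 capillary-like cells, or 522 CPM before scaling (95% interval 278 to 893), against 162 CPM (65.3 to 335) from 7 counts in 1 of 21 cells in high fat mesentery of run A. With that library included, the log2 difference was -0.52 (edgeR, adjusted p = 1.00) and 1.75 with the block (edgeR, adjusted p = 0.101). DESeq2 gave 6.29 with an adjusted p of 1.00, and without run B of high fat mesentery the blocked difference was 3.19 (edgeR, adjusted p = 1.00). In cluster 2 alone, run B had 2 counts in 320 cells of chow mesentery and 151 counts in 284 cells of high fat mesentery, and in cluster 5 it had 0 counts in 136 and 11 in 439 cells. Lymphatic markers, 7 genes, summed to 74.3 to 371 CPM in capillary-like cells of run A and 1.46 to 10.1 CPM in run B, and adipocyte markers were at 1607 and 1667 CPM in the chow libraries of run B against 0 to 203 CPM elsewhere; their part in the Pgf values was not tested.

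In the other comparisons of capillary-like cells, Pgf was called only with the block. Between mesentery and adipose tissue on chow the log2 difference was -4.25 ± 1.06 (edgeR, adjusted p = 0.0681, beside 0.0758% of all genes) and -3.76 ± 0.86 with the block (edgeR, adjusted p = 0.00703, beside 0.256%), or -2.13 without run B of chow adipose tissue (edgeR, adjusted p = 0.968), and -3.18 within run B. The diet difference in mesentery minus that in adipose tissue was 3.07 ± 1.26 (edgeR, unadjusted p = 0.0150, adjusted p = 1.00, beside 0.0379%) and 4.26 ± 0.95 with the block (edgeR, adjusted p = 0.0133, beside 0.114%). That blocked difference fell to 2.81, 2.91 and 2.90 without run B of high fat adipose, high fat mesentery or chow adipose tissue (edgeR, adjusted p = 1.00, 1.00 and 0.979). Between the diets in adipose tissue Pgf differed by 2.52 ± 0.68 (edgeR, adjusted p = 0.0922, beside 0.171%), and the runs went opposite ways, with 2.29 in run A and -0.32 in run B. Between the tissues on the high fat diet it differed by -1.18 ± 0.64 (edgeR, unadjusted p = 0.0641, beside 0.0379%), with -1.11 in run A and 1.29 in run B.

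In lymphatic-like cells Vegfa was highest in the mesentery on chow. Its levels were 30.5 and 57.4 CPM in chow mesentery, 15.4 and 7.25 CPM in high fat mesentery, 12.9 and 21.1 CPM in chow adipose and 13.2 and 21.7 CPM in high fat adipose tissue (runs A and B). Both chow mesentery libraries lay above all the others. Run B of high fat mesentery rested on 7 Vegfa UMIs in 5 of 134 cells. The log2 difference between the diets in mesentery was -1.91 ± 0.50 (edgeR, unadjusted p = 0.00477, adjusted p = 0.227, beside 0% of all genes) and -1.79 ± 0.40 with the block (edgeR, adjusted p = 0.0253, beside 5.08%), with -0.94 in run A and -2.82 in run B. With no filter on low counts the difference without the block was called as well (edgeR, adjusted p = 0.00867). Between the tissues on chow it was 1.39 ± 0.49 (edgeR, unadjusted p = 0.0222, adjusted p = 0.301, beside 1.62%), with 1.18 in run A and 1.40 in run B. The diet difference in mesentery minus that in adipose tissue was -1.96 ± 0.72 (edgeR, unadjusted p = 0.0265, adjusted p = 1.00, beside 0%), with -0.96 and -2.86 in the runs, and between the tissues on the high fat diet Vegfa differed by -0.57 ± 0.53 (edgeR, unadjusted p = 0.311, beside 0%), with 0.21 and -1.46.

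The lymphatic-like Vegfa difference went with cluster 16. That cluster held 109 and 430 cells of chow mesentery, 31 and 2 of high fat mesentery (runs A and B) and 0 of adipose tissue. It was led by Marco, Cd55 and Bmp2 and was named from 4 lymphatic markers at a mean log2 fold of 0.90. The mean log2 fold was 1.85 to 3.58 in the other lymphatic-like clusters. The Vegfa level of cluster 16 was 62.7 and 78.9 CPM in chow mesentery and 38.2 CPM in run A of high fat mesentery. Cluster 16 made up 58.8% of the lymphatic-like cells in run B of chow mesentery, while cluster 7 held most in run A (53.4%) and in run A of high fat mesentery (63.0%) and cluster 19 in run B of high fat mesentery (60.5%). Without cluster 16 the blocked diet difference in mesentery was 0.063 (edgeR, adjusted p = 0.984). The call was also lost without run B of high fat mesentery (-1.02, adjusted p = 0.403 by edgeR), run B of chow mesentery (-1.41, 0.237) or either library of high fat adipose tissue (-1.78 each, 0.0709 and 0.0708). In lymphatic-like cells the 10 arterial markers summed to 3923 and 6269 CPM in chow mesentery and 1001 to 1923 CPM in the other libraries, and their part in the Vegfa values was not tested. Vegfb had the smallest p between the diets in adipose tissue, at 0.30 ± 0.33 (edgeR, unadjusted p = 0.392, beside 0%), with 42.4 and 56.2 CPM on chow and 53.7 and 67.3 CPM on the high fat diet.

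**Figure D4:**
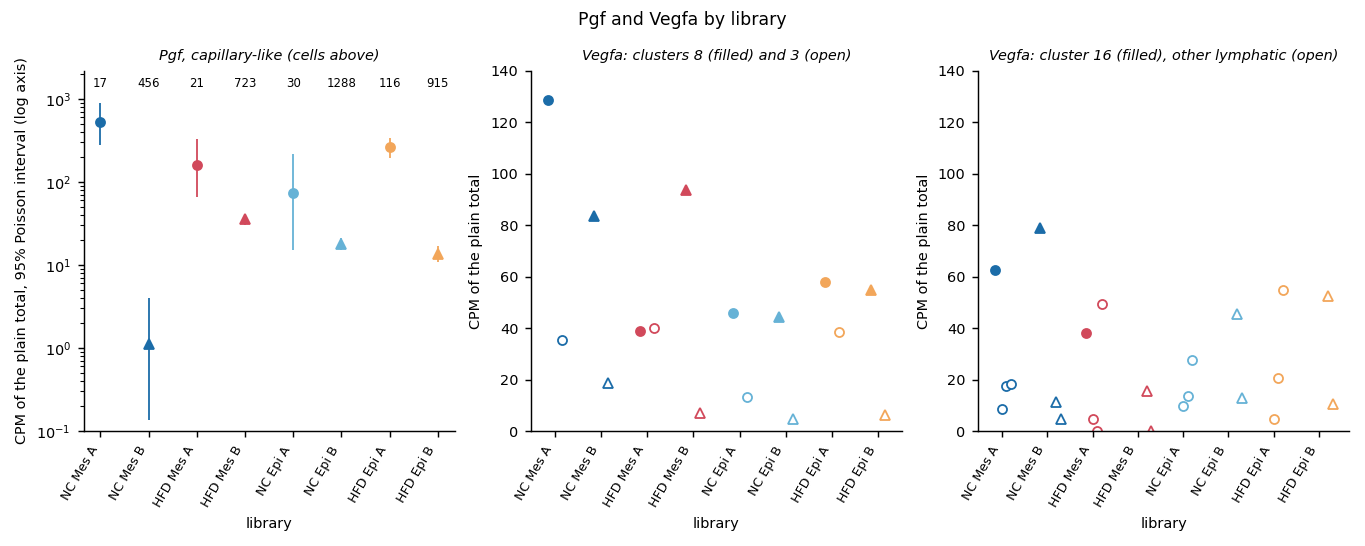
Left, Pgf in capillary-like cells of each library (CPM before scaling, log axis, 95% Poisson interval, number of cells above); middle and right, Vegfa (CPM before scaling) in the arterial-like clusters 8 (filled) and 3 (open) and in the lymphatic-like cluster 16 (filled) and the others (open), for clusters with at least 20 cells in a library. NC is chow, HFD the high fat diet, Mes mesentery and Epi adipose tissue; run B of chow mesentery has the lowest Pgf (1.12 CPM) and the 17 cells of run A the highest (522 CPM).

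In arterial-like cells Vegfa was again highest in the mesentery on chow. Its levels were 89.4 and 50.4 CPM in chow mesentery, 39.0 and 24.8 CPM in high fat mesentery, 31.0 and 17.8 CPM in chow adipose and 49.6 and 15.9 CPM in high fat adipose tissue (runs A and B). Both chow mesentery libraries lay above all others, and run A was above run B in every group. The closest pair was run B of chow mesentery and run A of high fat adipose tissue, with 90 and 14 UMIs. Their 95% Poisson intervals before scaling, 40.5 to 62.0 and 26.9 to 82.6 CPM, overlapped. Between the tissues on chow the log2 difference was 1.67 ± 0.69 (edgeR, unadjusted p = 0.0400, adjusted p = 1.00, beside 0% of all genes) and 1.56 ± 0.31 with the block (edgeR, adjusted p = 0.0137, beside 0.502%), with 1.498 in run A and 1.45 in run B. Without run B of chow mesentery the blocked value was 1.48 (edgeR, adjusted p = 0.430), without run B of chow adipose tissue 1.73 (edgeR, adjusted p = 0.280), and in cluster 8 alone 1.14 (edgeR, adjusted p = 0.266). Cluster 8 had 128 and 83.6 CPM of Vegfa in chow mesentery and 46.0 and 44.2 CPM in chow adipose tissue, and cluster 3 had 35.4 and 18.6 against 13.3 and 4.67 CPM. The adipocyte markers summed to 547 CPM in run B of chow mesentery and 1371 CPM in run B of chow adipose tissue, against 3.57 to 103 CPM elsewhere, and their part in the Vegfa values was not tested.

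The other arterial-like comparisons held no call. Between the diets in mesentery Vegfa differed by -1.23 ± 0.67 (edgeR, unadjusted p = 0.105, beside 0% of all genes), with -1.18 in run A and -0.995 in run B, and the diet difference in mesentery minus that in adipose tissue was -1.58 ± 0.98 (edgeR, unadjusted p = 0.147, beside 0%). For Nrp2 the levels were 3.89 and 31.4 CPM in chow mesentery, 14.2 and 49.6 CPM in high fat mesentery, 12.4 and 43.3 CPM in chow adipose and 53.1 and 67.4 CPM in high fat adipose tissue. Run B was above run A in each group, and high fat libraries were above chow libraries of the same run and tissue. The Nrp2 difference was 1.00 ± 0.69 between the diets in adipose tissue (edgeR, unadjusted p = 0.186, beside 0%) and -0.77 ± 0.69 between the tissues on the high fat diet (edgeR, unadjusted p = 0.299, beside 0%).

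In venous-like cells Nrp1 was lowest in the mesentery on chow. Its levels were 110 and 255 CPM in chow mesentery, 165 and 583 CPM in high fat mesentery, 498 and 796 CPM in chow adipose and 410 and 619 CPM in high fat adipose tissue (runs A and B). The chow libraries of mesentery and adipose tissue did not overlap, and run B was above run A in each group. Between the tissues on chow the log2 difference was -1.86 ± 0.62 (edgeR, unadjusted p = 0.0181, adjusted p = 1.00, beside 0% of all genes) and -1.94 ± 0.28 with the block (edgeR, adjusted p = 0.00217, beside 1.56%), with -2.16 in run A and -1.64 in run B. With no filter on low counts it was called without the block (edgeR, adjusted p = 0.0212). Without run A of chow adipose tissue the blocked value was -1.65 (edgeR, adjusted p = 0.0606), and without cluster 15, which held 89.3% of the venous-like cells in run A of chow mesentery, it was -1.67 (edgeR, adjusted p = 0.0337). Leaving out cluster 15 kept 65 venous-like cells in run A of chow mesentery, 39 of them in cluster 28. Cluster 11 held 69.6% in run B of chow mesentery, cluster 24 held 78.6% in run A and cluster 6 held 50.1% in run B of chow adipose tissue. With libraries pooled, Nrp1 was 688, 309, 98.6, 437 and 123 CPM in clusters 6, 11, 15, 24 and 28. The fit without cluster 15 thus still compared different clusters, and their part in the Nrp1 difference was not tested. The diet difference of Nrp1 in mesentery minus that in adipose tissue was 1.40 ± 0.86 (edgeR, unadjusted p = 0.142, beside 0%).

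Other members of the venous-like class had no call. Flt4 was 5.40 and 7.97 CPM in chow mesentery and 10.98 and 18.8 CPM in high fat mesentery, so both high fat libraries lay above both chow libraries. The log2 difference was 1.29 ± 0.46 (edgeR, unadjusted p = 0.0247, adjusted p = 1.00, beside 0% of all genes), with 0.90 in run A and 1.14 in run B. Cluster 15 held 56.5% of the venous-like cells in run A of high fat mesentery and cluster 6 held 77.3% in run B. Vegfa was 15.4 and 5.09 CPM in chow adipose and 2.01 and 2.16 CPM in high fat adipose tissue, a difference of -2.07 ± 1.00 (edgeR, unadjusted p = 0.0746, beside 0%). Pgf was 0 and 0.408 CPM in high fat mesentery and 8.04 and 3.03 CPM in high fat adipose tissue, and the fitted difference of -3.62 ± 1.64 (edgeR, unadjusted p = 0.0587, beside 0%) depends on the small counts.

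Over all endothelial cells, Vegfa was 27.2 and 38.9 CPM in chow mesentery, 19.6 and 11.1 CPM in high fat mesentery, 15.8 and 10.6 CPM in chow adipose and 15.7 and 7.68 CPM in high fat adipose tissue (runs A and B). Both chow mesentery libraries lay above all others here. These sums hold the arterial-like and lymphatic-like cells already described, so they are not separate evidence. They also hold the unnamed cluster 23, with 117 CPM of Vegfa with libraries pooled. It held 105 and 219 cells in chow mesentery (runs A and B) and 3 to 25 in each other library. The part of cluster 23 in the endothelial Vegfa values was not tested. The log2 difference of Vegfa between the tissues on chow was 1.35 ± 0.50 (edgeR, unadjusted p = 0.0336, adjusted p = 1.00, beside 0% of all genes), between the diets in mesentery -1.11 ± 0.50 (edgeR, unadjusted p = 0.0634, beside 0%), between the tissues on the high fat diet 0.41 ± 0.51 (edgeR, unadjusted p = 0.442, beside 0%), and for the difference of diet differences -0.94 ± 0.71 (edgeR, unadjusted p = 0.231, beside 0%). Pgf was 18.9 and 2.55 CPM in chow mesentery and 53.8 and 11.8 CPM in chow adipose tissue, and the blocked difference was -1.82 ± 0.26 (edgeR, adjusted p = 0.0469, beside 0.487%), with -1.46 in run A and -1.85 in run B. That call was lost without either library of high fat adipose tissue, either of chow adipose tissue or run B of chow mesentery (edgeR, adjusted p = 0.0795, 0.101, 0.209, 0.204 and 0.0522). Vegfc was 60.7 and 81.5 CPM in chow adipose and 47.2 and 62.5 CPM in high fat adipose tissue, a difference of -0.35 ± 0.35 (edgeR, unadjusted p = 0.345, beside 0%). The share of each class and of each unnamed cluster among endothelial cells enters these sums.

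The rest of the pathway was read from 5 lists, of which 3 of 6 genes of ligand processing, 10 of 15 other ligands and co-receptors, 16 of 16 receptor regulators, 12 of 12 response genes and 20 of 24 signal mediators passed the filter. Between arterial-like and lymphatic-like cells, 8 of 12 response genes were higher and 2 lower, with a list median of 1.87, beside 20.2% higher and 21% lower among all genes and a median of -0.026. Dll4, a Notch ligand induced by VEGF in arteries, was higher in arterial-like than in lymphatic-like cells by 2.03 ± 0.16 (edgeR, adjusted p = 2.75e-11), and Angpt2, a ligand of the Tie2 receptor, was lower by a log2 difference of -4.70 ± 0.48 (edgeR, adjusted p = 4.60e-09). Between capillary-like and lymphatic-like cells 5 were higher and 3 lower, beside 17% and 21.6% of all genes, with Apln, the ligand of the apelin receptor, at 7.95 ± 0.48 (edgeR, adjusted p = 1.50e-13). Between arterial-like and venous-like cells 6 were higher and 2 lower, with a median of 0.72, beside 12.3% and 14.8% of all genes and a median of -0.014.

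Of the 10 other ligands and co-receptors tested, 5 were higher and 3 lower in arterial-like than in lymphatic-like cells, beside the same 20.2% and 21% of all genes, with a list median of 0.55. Of the semaphorins, which bind neuropilins, Sema3g was higher in arterial-like cells by 8.43 ± 0.35, while Sema3d and Sema3a were lower, at -9.63 ± 0.43 and -7.95 ± 0.41 on the log2 scale (edgeR, highest adjusted p = 3.62e-15). Vegfd, another ligand of Flt4, was higher in arterial-like than in capillary-like cells by 2.70 ± 0.45 (edgeR, adjusted p = 4.52e-05), in a list with 4 higher and 1 lower, beside 11.3% and 8.03% of all genes. Of the 3 tested genes of ligand processing, Pcsk5 and Furin, proprotein convertases, were higher in arterial-like than in lymphatic-like cells, by 5.28 ± 0.36 and 1.01 ± 0.14 (edgeR, highest adjusted p = 1.18e-06), and 0 were lower. Against capillary-like cells Pcsk5 was higher in arterial-like cells by 8.38 ± 0.54 (edgeR, adjusted p = 4.09e-12).

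Of the 16 receptor regulators, 5 were higher and 6 lower in arterial-like than in lymphatic-like cells, beside 20.2% and 21% of all genes, with a list median of 0.06. Ptprb, the endothelial phosphatase that acts on Kdr and Tie2, was higher in arterial-like cells by 3.27 ± 0.12 (edgeR, adjusted p = 3.66e-18), and Itgav, an integrin subunit, was lower at -2.35 ± 0.23 (edgeR, adjusted p = 1.60e-09). Efnb2, the arterial ephrin that promotes uptake of VEGF receptors, was higher in arterial-like than in venous-like cells by 2.50 ± 0.17 (edgeR, adjusted p = 3.52e-12). Of the 20 signal mediators tested, 6 were higher and 4 lower than in lymphatic-like cells with a median of 0.06, a share of calls near the 41.2% of all genes. Among those higher was the kinase Mapk3 at 1.69 ± 0.09 (edgeR, adjusted p = 2.14e-14).

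Between diets and tissues, the lists held 1 call without the block. It was Gpc1, a heparan sulfate proteoglycan that binds VEGF, at 8.81 ± 1.23 in lymphatic-like cells of the mesentery against adipose tissue on chow (edgeR, adjusted p = 0.0352, beside 1.62% of all genes). Cluster 16 gave 109 and 430 of the lymphatic-like cells in chow mesentery (runs A and B) and 0 in adipose tissue, and its part in the Gpc1 value was not tested. With the block, Gpc1 was 8.79 ± 1.16 and Shb, an adaptor of Kdr, 1.21 ± 0.33 higher in that comparison, while Angpt2 at -1.77 ± 0.39 and the kinase Fyn at -1.04 ± 0.27 were lower (edgeR, highest adjusted p = 0.0439, beside 8.04%). With the block, 2 response genes were lower on the high fat diet in capillary-like cells of adipose tissue, Esm1 at -1.83 ± 0.41 and Angpt2 at -1.64 ± 0.42 (edgeR, adjusted p = 0.00160 and 0.0101, beside 1.04% of all genes). In lymphatic-like cells of the mesentery, the blocked fit gave Angpt2 at 2.26 ± 0.39 and Dusp5, a phosphatase of the kinase ERK, at 1.82 ± 0.47 higher on the high fat diet, and Gpc1 at -2.24 ± 0.49 and Epn2, an endocytic adaptor, at -1.04 ± 0.22 lower (edgeR, highest adjusted p = 0.0471, beside 5.08%). Cluster 16 held 23.96% and 58.8% of the lymphatic-like cells of chow mesentery and 7.05% and 1.49% of those of high fat mesentery (runs A and B), and its part in these 4 values was not tested. In venous-like cells the blocked fit gave Sema3g at 2.56 ± 0.45 higher on the high fat diet in mesentery (edgeR, adjusted p = 0.0291, beside 0.408%) and Adamts1, a secreted protease, at -1.33 ± 0.25 lower in mesentery than in adipose tissue on chow (edgeR, adjusted p = 0.0132, beside 1.56%).

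The genes whose levels were most like those of a receptor were sought over the 31 sums, each centred on its library mean, among 6422 genes. The measure is Pearson's correlation of log2(CPM + 1), given as a description because sums of 1 library share their mice and depth. For Kdr they were Fscn1 (0.94), Grap (0.909) and Lyn (0.904). For Flt1 they were Abcb1a (0.987), Cd93 (0.983) and its own co-receptor Nrp1 (0.982), and for Nrp1 they were Cd93, Palmd and Abcb1a (0.984 each). For Flt4 they were Ift43 (0.952), Map4k2 (0.933) and Dlg1 (0.920), and for Nrp2 they were Gngt2 (0.959), Tshz2 (0.953) and Tmsb10 (0.945). With Spearman's correlation the same 3 genes led for Kdr, 1 of 3 for Flt4 and 0 of 3 for the others.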

How the data were processed

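Single-cell libraries of sorted YFP-positive cells were made with 10x Genomics 3′ chemistry (v3.1), per the labels' protocols, with about 5000 cells as the target. The authors deposited raw UMI counts as whole numbers for each gene and barcode, and the deposited gene and barcode lists hold other values, names only. Per the file headers, run A carries software version 3.0.2 and run B Cell Ranger 5.0.0, so the runs differ in processing as well as in mice. The submitters' processing notes name mm10 and Seurat 4.3.0. The 30406 gene identifiers in both lists held 99.58 to 99.93% of UMIs.

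Of 27944 barcodes, 23996 passed minimums of 500 UMIs and 300 genes and a mitochondrial maximum of 10%. Scrublet's automatic threshold marked 40 cells (0.167%) and was replaced by the number expected from loading, which removed 896 (3.73%). Cells were clustered (scanpy 1.11.5, leidenalg 0.10.2, resolution 1.0) on 2000 variable genes without the VEGF and pathway genes, after a re-implementation of Harmony across runs, and named from marker lists; limits were set after the clusters were seen. A class sum needed 20 cells. Counts were tested with edgeR 4.0.16 (TMM, filterByExpr, quasi-likelihood, R 4.3.3) without a block; DESeq2 1.42.0, other filters, clusterings and left-out libraries were alternatives. Intervals are exact and cover counting error only.

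The run letters pair the samples: deviations from group means correlated across genes at 0.64 to 0.75 in arterial-like, 0.22 to 0.37 in capillary-like, 0.69 to 0.80 in venous-like and 0.59 to 0.71 in lymphatic-like cells. The labels call the runs independent replicates, and nothing further is said of shared days.

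On simulated counts at the real depths, 69% of genes changed by 2 log2 units and 7% of those changed by 1 were recovered in the arterial-like diet comparison (9158 genes), and 98% and 82% between classes (9688 genes). The simulation gave every gene the same dispersion and held no difference between runs. The real sums differ between runs, and the arterial-like diet fit without the block called 0 genes. These shares may therefore overstate what the real data can recover. Diet and tissue differences are printed for members called with or without the block and for the member with the smallest unadjusted p in each comparison and class, class differences for called members and for steps beside them, 3 like genes per receptor, and up to 4 called genes per pathway list. The members and lists were chosen with earlier results of these data known.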

Additional observations from a re-analysis of the deposited data

Results flagged for a closer look

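In capillary-like cells the diet difference of Pgf in mesentery, less that in adipose tissue, was 4.26 log2 units with the run as a block. It was not called without the block. The chow mesentery arm is 1 library with 2 Pgf counts, and without the block the value was -3.08 with sums of 10 or more cells and -1.502 with doublets kept.

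The other values come from clusters outside the named classes. Clusters 9 and 12 entered no test, and cluster 23 entered only the sums over all endothelial cells. In the adipocyte-like cluster 9 (961 cells), Vegfb reached 253 CPM with libraries pooled (95% Poisson interval 235 to 272), above the 76.7 CPM that was the highest of any library in the named endothelial classes. In cluster 12 (727 cells), which carries both endothelial and adipocyte markers, Vegfb was 92.5 CPM (84.7 to 101), and whether its barcodes hold more than 1 cell was not tested. Cluster 23 (424 cells) carries arterial markers but is led by Mgp, Cytl1 and Pi16 and stayed unnamed. Its Vegfa level was 117 CPM with libraries pooled (103 to 132). By library it was 0 to 148 CPM with a median of 90.0 CPM, beside 38.9 to 128 CPM in arterial-like cluster 8 and up to 95.7 CPM in the class sums.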

How the results depend on the processing

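The number of VEGF genes called was within the limits of the main count in 434 of 455 pairs of a comparison and an alternative setting. Log2 differences reversed in 17 of 919 such pairs. The main fit called a VEGF gene in only 1 of the diet and tissue comparisons. An unchanged count there is thus mostly a repeated 0 and says little about stability. With the run as a replicate block, 1 gene in place of 0 was called in arterial-like, capillary-like, venous-like and endothelial cells between the tissues on chow, in lymphatic-like cells between the diets in mesentery and in the capillary-like difference of diet differences. The 1 capillary-like call between the diets in mesentery became 0 with DESeq2, with clustering at resolution 2.0, with doublets kept and with sums of 10 or more cells, with or without the block. Counts rose from 0 to 1 in capillary-like cells between the diets in adipose tissue (doublets kept, cluster 2 alone), between the tissues on chow (cluster 2 alone), in venous-like cells between the tissues on chow (no filter on low counts, and the block without cluster 15) and in lymphatic-like cells between the diets in mesentery (no filter). With 1 library left out, capillary-like counts ranged from 0 to 1 between the diets in adipose tissue (1 without run A of chow or run B of high fat adipose tissue), between the tissues on chow (1 without run A of high fat mesentery) and in the difference of diet differences (1 without run A of high fat adipose tissue). The share of all genes called in each of these alternative settings is not given here. The counts are therefore not read as a result about the VEGF genes beside other genes.

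Reversed values of capillary-like Pgf were -0.52 (diets in mesentery), 1.89 (tissues on chow) and -3.08 (difference of diet differences) with sums of 10 or more cells, -1.502 (difference of diet differences) with doublets kept, and 0.50 with the block or 0.66 with the block and sums of 10 or more cells (tissues on the high fat diet). With 1 library left out Pgf reversed to -0.63 between the diets in adipose tissue (without run A of high fat adipose tissue; range to 3.64) and to 1.98 and 0.034 between the tissues on the high fat diet (without run A of high fat adipose tissue or run B of high fat mesentery; range from -2.27). Endothelial Vegfa reversed to -0.043 and -0.045 between the tissues on the high fat diet (without run A of high fat mesentery or run B of high fat adipose tissue; range to 1.001). Without cluster 16, lymphatic-like Vegfa moved to 0.0025 between the diets in mesentery (0.063 with the block), -0.90 between the tissues on chow (-0.91 with the block) and 0.0045 for the difference of diet differences with the block. Nrp2 between capillary-like and lymphatic-like cells turned to 0.23 in the reduced clusters. The cause of these changes was not tested. Cluster 5 alone held too few counts to be used, and the block was not fitted to cluster 2 or 5 alone.

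With 2 libraries a group and 17 to 30 capillary-like cells in 3 run A libraries, small changes of the sparse ligands could not be detected. At full depth, 73 shares of cells lay outside the 95% interval of the share at 1000 UMIs and 17 lay inside. With cells thinned to 500 UMIs, 55 shares lay outside that interval and 35 inside.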

Other observations

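Cluster 18 (490 cells), an endothelial cluster with no class name that is led by Col13a1, Scgb3a1 and Esm1, had pooled levels of 1916 CPM for Flt1 (95% Poisson interval 1857 to 1977) and 1285 CPM for Kdr (1237 to 1335). Cluster 22 (438 cells), with low endothelial markers and led by Apod, Acta2 and Slc38a5, had 174 CPM of Pgf (153 to 196). Both were chosen for these values after they were seen.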
